A study of Mus musculus with 9 samples.

Results

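The promoters of 47 cytosolic ribosomal protein genes, 29 of the large ribosomal subunit and 18 of the small one, were followed through 9 lists of ATAC-seq peaks as a reference set of genes that every cell uses. The 47 genes were taken by name, and a promoter was the sequence within 1000 bp on either side of every annotated transcription start site (TSS) of the gene in the mouse genome build mm9. They are 47 of 22350 protein-coding promoters defined in the same way on chromosomes 1 to 19 and X. For each list it was recorded whether a peak overlapped the promoter by at least 1 bp and how wide the widest such peak was. ATAC-seq marks accessible chromatin through insertions of the Tn5 transposase, and a peak is an interval in which the authors' peak caller found more reads than around it.

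Cells came from Swiss Webster embryos at embryonic day (E) 9.5 and were sorted as GFP-positive and DAPI-negative, from tissue pooled over embryos. All embryos carried the Rosa26-GFPflox/+ reporter, in which Cre recombinase switches on GFP permanently. The Tbx1-Cre Ctrl group (3 libraries) had the genotype Tbx1Cre;Rosa26-GFPflox/+, in which Cre sits in the Tbx1 locus and takes away 1 working copy of Tbx1, so that these controls were heterozygous for that gene. The Tbx1-Cre cKO group (3 libraries) had the genotype Tbx1Cre/flox;Rosa26-GFPflox/+, in which the other copy is also lost wherever Cre has acted. The Mesp1-Cre Ctrl group (3 libraries) had the genotype Mesp1Cre;Rosa26-GFPflox/+ and both copies of Tbx1. Mesp1 drives Cre in early mesoderm, whereas Tbx1 drives it in pharyngeal mesoderm, endoderm and ectoderm, so both lineages hold mixtures of cell types. The labels name the source pharyngeal mesoderm and give heart as part of the tissue, while the methods of the study describe pharyngeal tissue collected without the heart. No label gives a sequencing batch. The study's sample summary lists embryos for each replicate separately, and the libraries of a group were taken as separate pools, which the labels themselves do not state. The main text of the study gives fewer biological replicates for these experiments than the 3 per group in that summary.

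The lists held 43298 to 49490 peaks in Tbx1-Cre Ctrl, 19772 to 29251 in Tbx1-Cre cKO and 25485 to 42650 in Mesp1-Cre Ctrl. The narrowest peak was 200 bp in the 6 Tbx1-Cre lists and 199 bp in the 3 Mesp1-Cre lists, and each Mesp1-Cre list held 2 peaks on the mitochondrial genome where the Tbx1-Cre lists held 0, although the methods describe removal of mitochondrial reads. A difference in processing between these lists cannot be told apart from the lineage. The peak total of Mesp1-Cre Ctrl 1 does not appear in the study's sample summary, and those of the remaining Mesp1-Cre lists stand there under other replicate numbers, so the identity of Mesp1-Cre Ctrl 1 is in doubt, and the difference in median width and the counts of members that did not overlap are also given without it. The read depth of the libraries is unknown from peak lists. A promoter without a peak is therefore one that was not called, not one measured as closed. A peak overlapped the Tbx1 promoter in 3 of 3 Tbx1-Cre Ctrl lists, 0 of 3 Tbx1-Cre cKO lists and 2 of 3 Mesp1-Cre Ctrl lists, which does not measure the deletion itself. Of 8 cardiopharyngeal mesoderm marker promoters, including Tbx1, 6 to 7 had a peak in Tbx1-Cre Ctrl, 2 to 5 in Tbx1-Cre cKO and 4 to 7 in Mesp1-Cre Ctrl. Of 8 pharyngeal epithelium markers, 4 to 6, 2 to 4 and 3 to 5 had one, and of 6 blood markers 0 to 1, 0 to 1 and 1 to 2. Of 6 endothelium markers, 3, 1 to 3 and 3 to 4 had a peak, and of 5 neural crest markers 2 to 4, 1 to 2 and 1 to 3. The part of cell composition in the widths below was not tested.

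Ribosomal proteins assemble with ribosomal RNA into the large (60S) and small (40S) subunits. Since a ribosome needs most of them in equal amounts, their genes are transcribed together at a high rate in nearly every cell. Their mRNAs typically begin with a run of pyrimidines, the TOP element, through which mTOR signalling controls their translation. Their promoters are usually rich in CpG, often lack a TATA box and many bind ETS factors such as GABP, and many introns of these genes carry small nucleolar RNAs (snoRNAs).

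The promoter sequences of 5 members are shown because the results turn on them: Rpl7 had the widest peak on average, Rpl8 the narrowest, Rpl35 and Rpl38 were each without a peak in 1 list, and Rpl37 had the steadiest width and was picked for printing after its values were seen. Each run holds the 200 bases before the first protein-coding start annotated in GENCODE, read 5′ to 3′ in the direction of the gene from the mm9 genome. Rpl7 is at chr1:16094744-16094943 on the minus strand, Rpl8 at chr15:76734301-76734500 on the plus strand, Rpl35 at chr2:38861145-38861344 on the minus strand, Rpl38 at chr11:114529638-114529837 on the plus strand and Rpl37 at chr15:5066413-5066612 on the plus strand. Capitals mark matches on either strand of the motifs described next, and in Rpl35 a 68-base repeat of the unit TAGA that reaches from position -163 to -96, counted back from the start.
Rpl7: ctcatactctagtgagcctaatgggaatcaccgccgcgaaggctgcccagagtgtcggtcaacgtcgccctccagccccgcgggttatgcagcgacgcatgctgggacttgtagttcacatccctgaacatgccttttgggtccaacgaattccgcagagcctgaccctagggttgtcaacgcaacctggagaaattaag
Rpl8: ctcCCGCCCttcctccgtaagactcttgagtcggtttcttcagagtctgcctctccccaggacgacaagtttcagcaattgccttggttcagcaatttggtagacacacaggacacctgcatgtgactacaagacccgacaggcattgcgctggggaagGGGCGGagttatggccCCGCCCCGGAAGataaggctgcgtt
Rpl35: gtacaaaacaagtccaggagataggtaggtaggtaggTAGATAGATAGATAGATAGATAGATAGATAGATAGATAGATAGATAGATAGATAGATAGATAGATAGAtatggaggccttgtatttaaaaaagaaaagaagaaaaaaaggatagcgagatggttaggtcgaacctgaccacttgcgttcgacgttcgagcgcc
Rpl38: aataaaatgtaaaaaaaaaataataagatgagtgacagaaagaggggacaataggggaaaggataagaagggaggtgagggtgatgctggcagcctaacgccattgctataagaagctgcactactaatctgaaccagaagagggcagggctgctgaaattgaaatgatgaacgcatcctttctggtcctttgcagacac
Rpl37: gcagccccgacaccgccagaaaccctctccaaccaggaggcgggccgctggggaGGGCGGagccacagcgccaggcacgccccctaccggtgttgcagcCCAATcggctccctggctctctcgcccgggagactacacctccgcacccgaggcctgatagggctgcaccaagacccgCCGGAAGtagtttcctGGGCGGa

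A peak covered all 200 of these bases of Rpl37 in 9 of 9 lists and all 200 of Rpl7 in 7 of 9. For Rpl8, none of the 200 lay under a peak in 7 lists, and for Rpl35 none did in any of the 9. In Rpl38 all 200 were covered in 3 lists, only the last 7 in another 3, and none in the 3 Tbx1-Cre cKO lists. The 5 promoters thus differed in where accessible chromatin was called, ahead of the start or only behind it.

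Most members had CpG-rich promoters, while the other sequence features searched were mixed. Within 500 bp of the first coding TSS their median GC content was 57.2% and their median ratio of observed to expected CpG 0.806. By a GC share over 0.5 and a ratio over 0.6, 44 of 47 (93.6%) were CpG-rich against 44.6% of all protein-coding promoters, and the exceptions were Rpl4, Rpl18 and Rps9. Motifs were searched on both strands from 250 bases before to 50 after the start. The ETS-type motif CCGGAAG, seen in the runs of Rpl8 and Rpl37, was in 15 of 47 promoters (31.9%) against 10.9% of all. The Sp1-type motif GGGCGG was in 42.6% against 44.0%, CCAAT (bound by NF-Y) in 36.2% against 37.9%, TATAAA (the TATA box) in 12.8% against 13.4%, and the E-box CACGTG in 14.9% against 7.78%. The YY1-type motif AAGATGGC was in 4.26% against 3.28%, and the NRF1-type motif GCGCATGC in 0 members against 3.36%. In Rpl8 a GGGCGG match on the opposite strand shares 1 base with CCGGAAG, and the CCGGAAG of Rpl38 lies outside its printed bases. A pyrimidine run of at least 8 bases spanned or adjoined the annotated start in 14.9% of the members against 6.05% of all promoters, but the median run was 2 bases in both sets. These are letter matches in fixed windows and not measured binding sites.

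Nearly every member had a peak in every list. Of the 423 combinations of a member and a library, 421 had a promoter peak and 2 (0.473%) did not. All 47 members had one in each Tbx1-Cre Ctrl and each Mesp1-Cre Ctrl list, and 47, 46 and 46 had one in Tbx1-Cre cKO 1, 2 and 3. A peak in all 9 lists was found for 45 members (95.7%), namely 27 of 29 large-subunit and 18 of 18 small-subunit genes. Among all 22350 promoters the share was 49.2%, and among the 9970 CpG-rich ones 83.7%. It was 88.6% for 35 other cytosolic ribosomal protein genes, 88.2% for 76 mitochondrial ribosomal protein genes, 90.2% for 41 proteasome subunit genes, 93.0% for 57 translation initiation factor genes, and 0.092% for 1087 olfactory receptor genes, which these cells are not known to use. The counts of members with a peak were the same with windows of 500 or 2000 bp, with the first coding TSS alone or with an overlap of at least 100 bp.

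Read as a measure of how complete each list was, the members lost fewer peaks than promoters in general. Of all 22350 promoters, 37.15 to 38.21% were missed in Tbx1-Cre Ctrl. In Tbx1-Cre cKO 41.81 to 47.27% were, and in Mesp1-Cre Ctrl 37.22 to 43.38%. Of the CpG-rich ones, 3.801 to 4.183%, 7.121 to 12.37% and 3.21 to 8.425% were missed in the same order. The shares below cover only promoters with a peak in all 3 Tbx1-Cre Ctrl lists, so by construction that group missed none of them. Of the 13170 promoters with a peak in all 3 Tbx1-Cre Ctrl lists, Tbx1-Cre cKO 1, 2 and 3 missed 4.81%, 7.28% and 11.8%, while they missed 0%, 2.13% and 2.13% of the 47 members. The Mesp1-Cre Ctrl lists missed 1.20%, 6.62% and 3.81% of those promoters and no member. Among CpG-rich promoters of that set, Tbx1-Cre cKO missed 2.67%, 3.65% and 7.15% and Mesp1-Cre Ctrl 0.386%, 3.75% and 1.74%. Mitochondrial ribosomal protein genes, in the same comparison, lost 0%, 2.63% and 11.8% in Tbx1-Cre cKO. The other cytosolic ribosomal protein genes, 34 in this set, lost 0%, 5.88% and 5.88% in Tbx1-Cre cKO and 0%, 2.94% and 0% in Mesp1-Cre Ctrl. In Tbx1-Cre cKO, 38 proteasome promoters lost 0%, 0% and 2.63%, and 54 translation initiation factor promoters lost none. With 47 members, 1 missed promoter is a step of 2.13%, so the members cannot resolve differences in completeness smaller than that.

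Both missing peaks were in Tbx1-Cre cKO lists and at promoters whose other Tbx1-Cre cKO peaks were narrow. Rpl38 (chr11:114529838-114533645) encodes the large-subunit protein that is disrupted in the Tail-short mouse and is needed for translation of several Hox mRNAs. Its peaks were 489, 1098 and 1152 bp wide in Tbx1-Cre Ctrl, 374 and 283 bp in Tbx1-Cre cKO 1 and 2, and 937, 1047 and 294 bp in Mesp1-Cre Ctrl. In Tbx1-Cre cKO 3 no peak overlapped the window, and the nearest one lay 6904 bp from the first coding TSS. The number of peaks over this stretch also differed: Tbx1-Cre Ctrl 1 held peaks of 489 and 240 bp, and Tbx1-Cre cKO 1 peaks of 374 and 344 bp, where Tbx1-Cre Ctrl 2 and 3 held a single one. Rpl35 (chr2:38857100-38861144) encodes a protein near the exit of the peptide tunnel. Its peaks were 823, 649 and 703 bp wide in Tbx1-Cre Ctrl, 497 and 275 bp in Tbx1-Cre cKO 1 and 3, and 546, 662 and 669 bp in Mesp1-Cre Ctrl. In Tbx1-Cre cKO 2 the nearest peak lay 2232 bp from the first coding TSS. All of the Rpl35 peaks began 59 to 213 bp behind that TSS, the start just after the TAGA repeat printed above, and its other annotated starts lie behind it. Within 500 bp of the TSS, 18.1% of the positions of Rpl38 and 6.49% of those of Rpl35 began a 32-base word found elsewhere in the genome, against a median of 4.9% over the members, and the part of reads that map to several places in the missing peaks was not tested. Fitted over promoters with a peak in at least 2 libraries of each group, with the missing widths left out, the relative width in Tbx1-Cre cKO against Tbx1-Cre Ctrl was -1.10 ± 0.58 (SE, log2) for Rpl38 (limma, Benjamini-Hochberg adjusted p = 0.435) and -0.58 ± 0.27 for Rpl35 (adjusted p = 0.391).

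**Figure D1:**
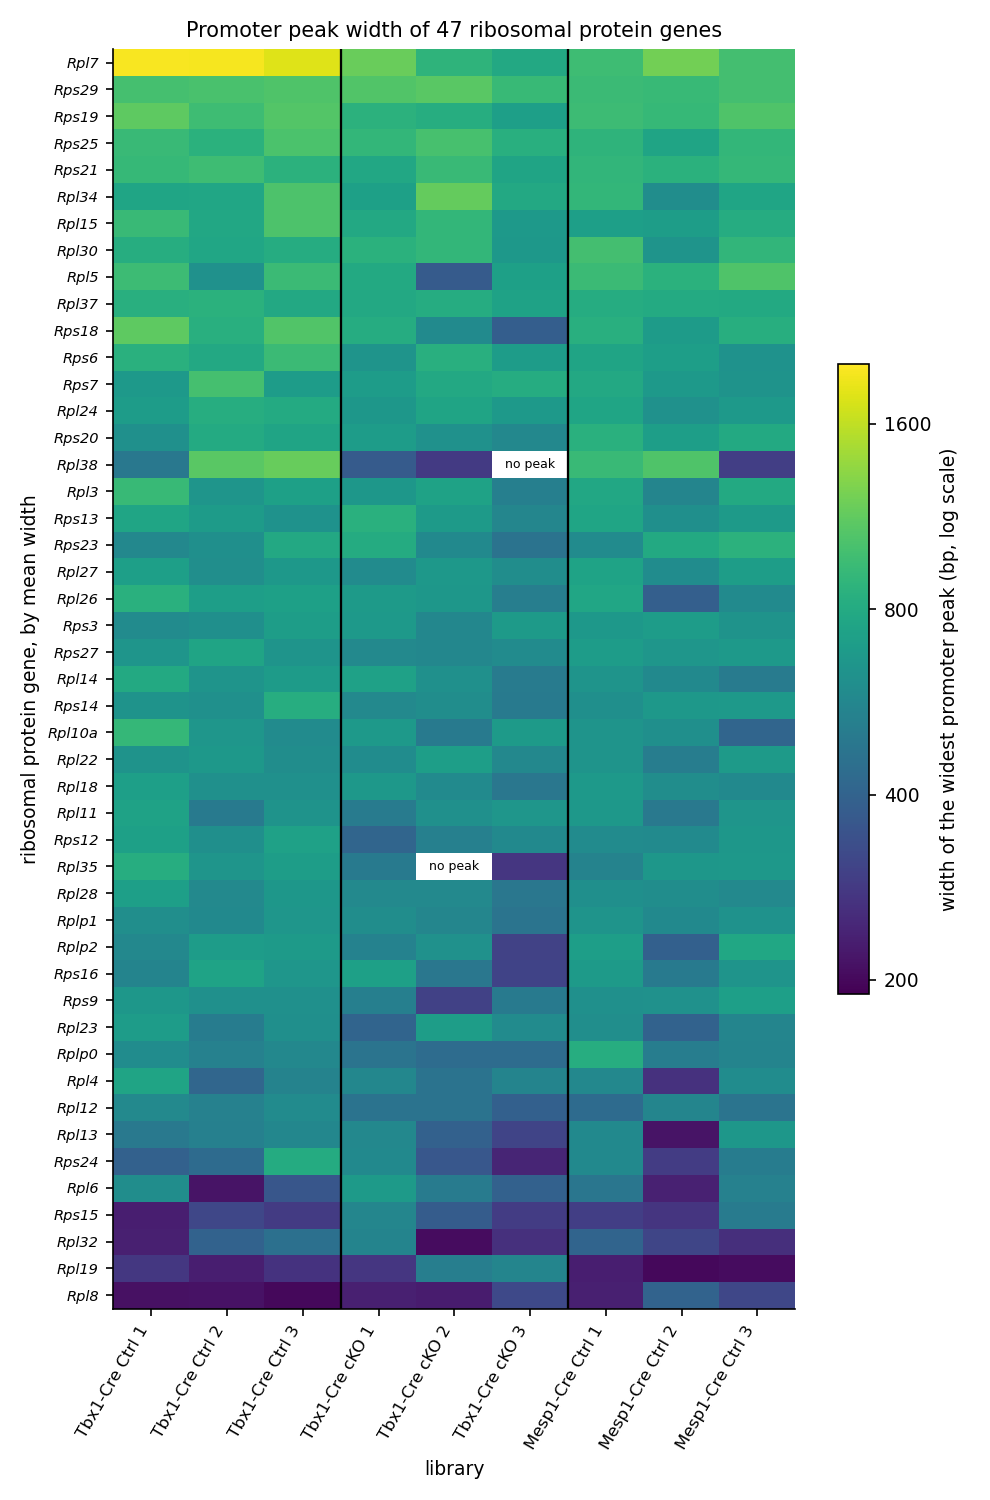
Width in bp of the widest promoter peak (colour, log scale) of the 47 ribosomal protein genes (vertical axis, ordered by mean width) in each of the 9 libraries (horizontal axis, 3 per group). White cells are the 2 promoters without a peak, Rpl38 in Tbx1-Cre cKO 3 and Rpl35 in Tbx1-Cre cKO 2, and the top line is Rpl7, at 1781 to 1951 bp in Tbx1-Cre Ctrl.

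The lists differed in length, so presence was also counted with fewer peaks. When each list was reduced to its 19772 widest peaks, the length of the shortest list, 37, 35 and 39 members remained in Tbx1-Cre Ctrl, 45, 44 and 46 in Tbx1-Cre cKO, and 41, 44 and 43 in Mesp1-Cre Ctrl. By construction Tbx1-Cre cKO 3 lost no peak and longer lists lost more peaks, though not always more members. The share of members kept was 74.5 to 83% in Tbx1-Cre Ctrl, 95.7 to 100% in Tbx1-Cre cKO and 87.2 to 93.6% in Mesp1-Cre Ctrl, beside 80.4 to 83.2%, 91.4 to 100% and 86.5 to 93.8% of all promoters with a peak. With the widest 75% of each list, 44, 44 and 44, then 46, 44 and 44, then 45, 43 and 45 members remained (91.5 to 97.9% kept, beside 91 to 96.4% of all promoters). Member peaks were wider than most peaks of their list, but less so than the peaks of the 10998 promoters called in all 9 lists. The median percentile of width of the members with a peak in a list ranged from 62.4 to 74.2 over the 9 lists. For those 10998 promoters it ranged from 72.1 to 86.3, a set that leaves out promoters called in only some lists.

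**Figure D2:**
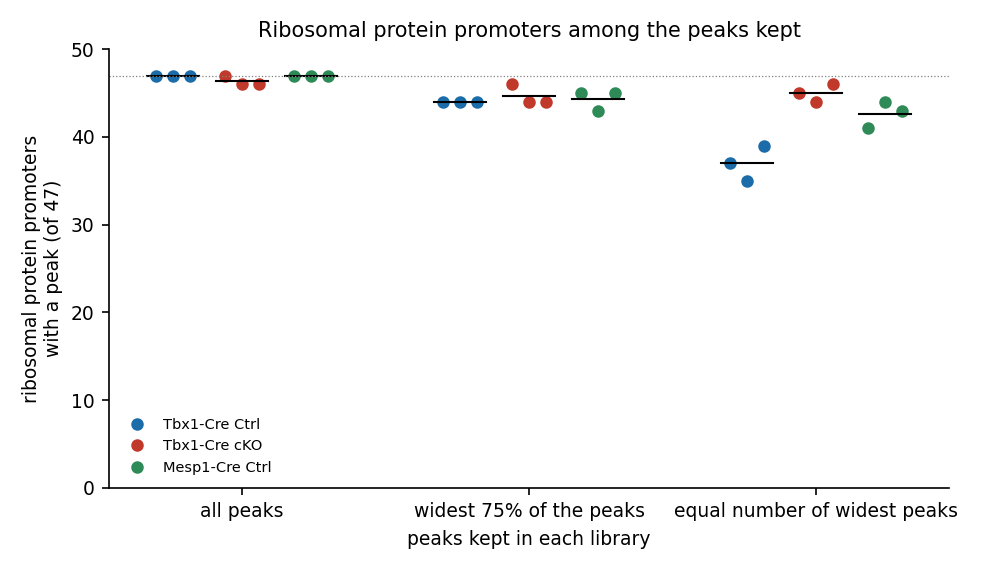
Number of the 47 ribosomal protein promoters with a peak (vertical axis) in each library (points, 3 per group, bars at the group mean) with all peaks, the widest 75% and an equal number of widest peaks kept (horizontal axis). With an equal number of widest peaks, Tbx1-Cre Ctrl kept 35 to 39 members and Tbx1-Cre cKO 44 to 46.

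Member peaks were narrower than those of other promoters and differed less between groups. The median width over the 45 members with a peak in all 9 lists was 715, 642 and 691 bp in Tbx1-Cre Ctrl (683 ± 37.2, SD, n = 3), 660, 602 and 562 bp in Tbx1-Cre cKO (608 ± 49.3) and 686, 601 and 663 bp in Mesp1-Cre Ctrl (650 ± 44.0). The difference from Tbx1-Cre Ctrl was -74.7 bp (-10.9%) in Tbx1-Cre cKO and -32.7 bp (-4.79%) in Mesp1-Cre Ctrl, and in both comparisons the libraries overlapped between groups. Both comparisons use the same control libraries. The Mesp1-Cre difference rests on Mesp1-Cre Ctrl 2 and on the controls: it was -8.17 bp without Mesp1-Cre Ctrl replicate 2, -50.7 bp without replicate 1 of that group, -16.5 bp without Tbx1-Cre Ctrl replicate 1 and -53 bp without Tbx1-Cre Ctrl replicate 2. The median over all 10998 promoters with a peak in every list was 884 ± 23.1 bp in Tbx1-Cre Ctrl, 692 ± 54.9 in Tbx1-Cre cKO and 775 ± 75.1 in Mesp1-Cre Ctrl (SD, n = 3). There neither group overlapped Tbx1-Cre Ctrl, with 857 to 898 bp in Tbx1-Cre Ctrl, 629 to 727 bp in Tbx1-Cre cKO and 698 to 848 bp in Mesp1-Cre Ctrl, and the differences were -21.7% and -12.3%.

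The median of the members as a percentage of the median of all promoters was 79.6, 74.9 and 77.1% in Tbx1-Cre Ctrl, 91.5, 82.8 and 89.4% in Tbx1-Cre cKO and 80.9, 86.1 and 85.2% in Mesp1-Cre Ctrl. Every Tbx1-Cre cKO and Mesp1-Cre Ctrl library was above every Tbx1-Cre Ctrl library in this ratio, which is a description of 45 chosen promoters and was not tested. In Tbx1-Cre cKO against Tbx1-Cre Ctrl, the median of the 27 large-subunit members differed by -10.9% and that of the 18 small-subunit members by -14.4%. The other lists differed by -18.2% (other cytosolic ribosomal proteins), -17.5% (mitochondrial ribosomal proteins), -18.1% (proteasome), -19.4% (translation initiation factors) and -20.5% (CpG-rich promoters). Their median widths in Tbx1-Cre Ctrl were 740, 758, 783, 888 and 909 bp in the same order, beside 683 bp for the members. The members thus started from the narrowest peaks among these lists, and the part of starting width in their smaller difference was not tested. The differences in percent depended on which Tbx1-Cre cKO libraries were kept. Without Tbx1-Cre cKO 3, the shortest list, they were -7.57% for the members, -10.9% for 31 other cytosolic ribosomal protein genes, -13.5% for mitochondrial ribosomal proteins, -12.9% for the proteasome, -14.7% for translation initiation factors and -18.1% for all promoters. Without Tbx1-Cre cKO 1 they were -14.75% for the members, -22.57% for the other cytosolic ribosomal protein genes and -23.27% for all promoters. Without Tbx1-Cre cKO 2 the members differed by -10.5%. Leaving out a Tbx1-Cre cKO library in this way was chosen after seeing the data.

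**Figure D3:**
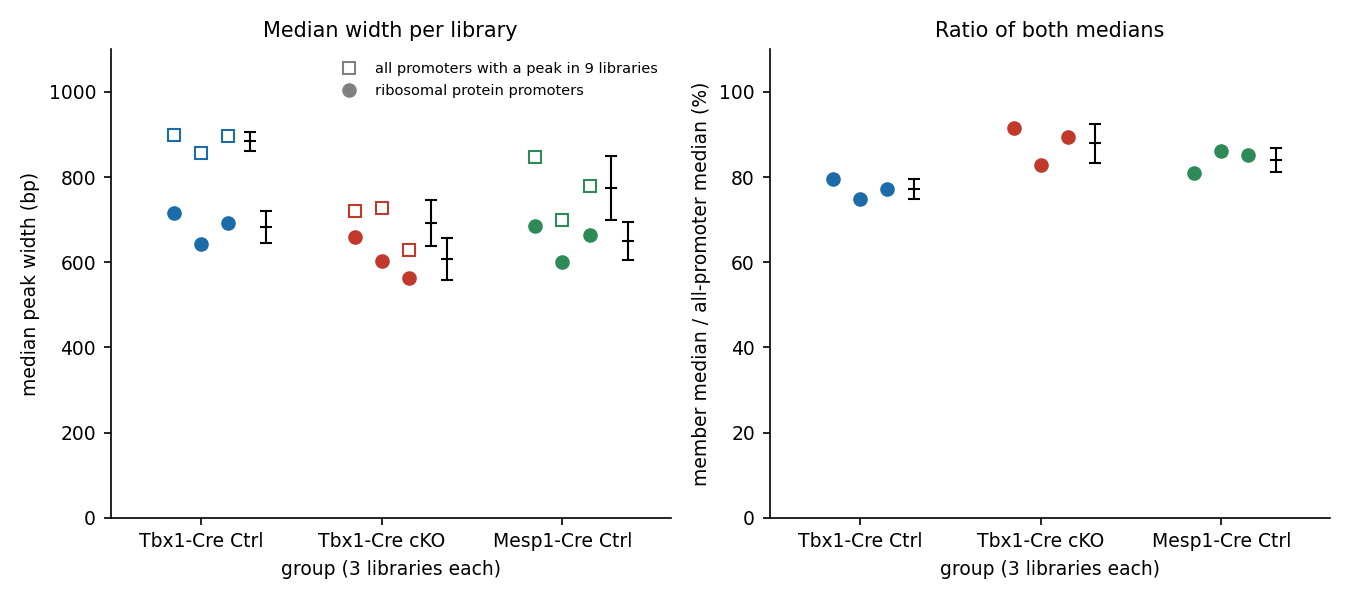
Left, median peak width in bp per library over 45 ribosomal protein promoters (filled circles) and over all 10998 promoters with a peak in 9 libraries (open squares), by group, with mean ± SD of 3 libraries in black. Right, the first as a percentage of the second, which was 74.9 to 79.6% in Tbx1-Cre Ctrl and 82.8 to 91.5% in Tbx1-Cre cKO.

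Around the start, peaks covered the first coding TSS of 93.6, 89.4 and 93.6% of the members in Tbx1-Cre Ctrl, 85.1, 78.7 and 80.9% in Tbx1-Cre cKO and 93.6, 85.1 and 89.4% in Mesp1-Cre Ctrl. Over all promoters these shares were 48.4 to 50.5%, 38.5 to 44.4% and 42.7 to 50.4%. At 500 bp behind the start, 8.51 to 19.1% of the members and 10.5 to 26.4% of all promoters were under a peak. For the 33 members whose first coding TSS was under a peak in all 9 lists, the median peak reached 381 ± 30.1 bp ahead of the TSS in Tbx1-Cre Ctrl, 321 ± 26.4 in Tbx1-Cre cKO and 341 ± 17.7 in Mesp1-Cre Ctrl. Behind the TSS it reached 336 ± 5.29, 309 ± 24.5 and 311 ± 32.3 bp (SD, n = 3 libraries in each group). For the 6979 promoters chosen in the same way from all genes, the downstream edge lay at 447, 347 and 376 bp. Their upstream edge lay at 420, 367 and 394 bp. Member peaks thus reached less far than those of other promoters on both sides of the start in every group.

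**Figure D4:**
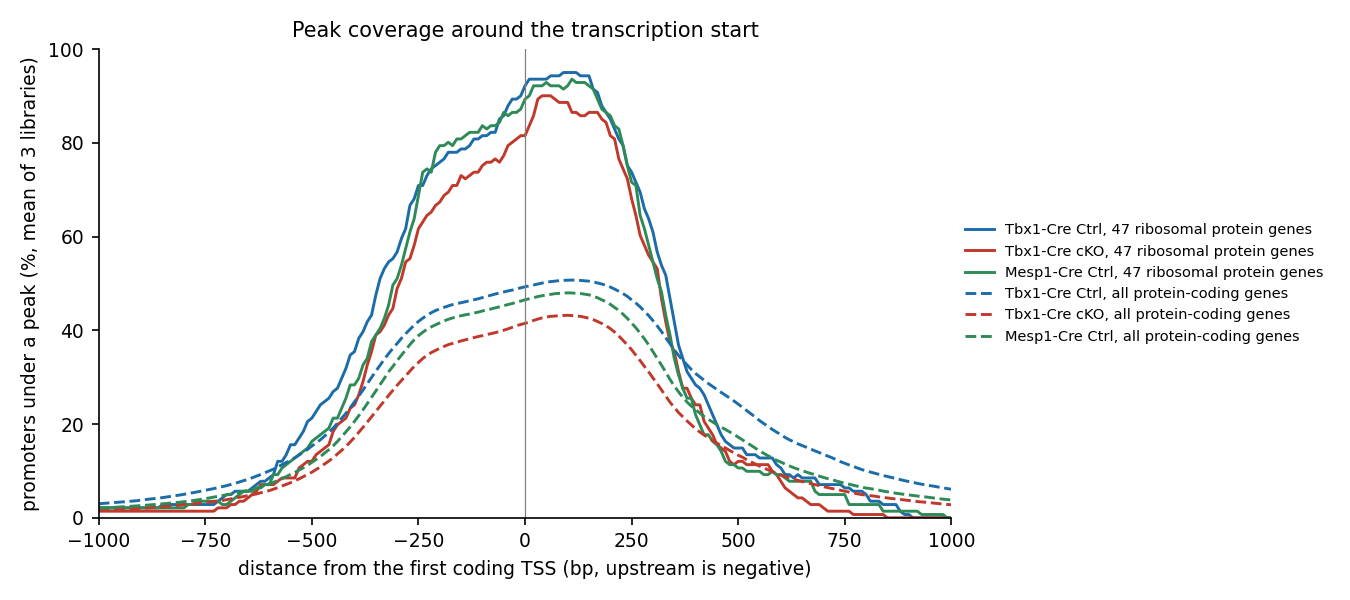
Share of promoters under a peak (vertical axis, %, mean of 3 libraries) by distance from the first coding TSS in bp (horizontal axis, upstream negative), for the 47 ribosomal protein genes (solid) and all protein-coding genes (dashed) in the 3 groups. In single libraries the members are at 78.7 to 93.6% at the TSS and at 8.51 to 19.1% at 500 bp behind it.

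Among the 45 members measured in every list, 36 (80%) had a lower mean width in Tbx1-Cre cKO than in Tbx1-Cre Ctrl, against 95.1% of all 10998 promoters, and 33 (73.3%) had a lower mean in Mesp1-Cre Ctrl, against 83.7%. All 3 Tbx1-Cre cKO widths lay below all 3 Tbx1-Cre Ctrl widths for 11 members (Rpl7, Rpl12, Rpl26, Rpl28, Rplp0, Rps9, Rps12, Rps14, Rps18, Rps19 and Rps27), where the share among all promoters was 39.3%, so the members were below the background. All 3 lay above for 1 member, Rpl8, against 0.118%. In Mesp1-Cre Ctrl, 5 members (Rpl7, Rpl14, Rpl19, Rps6 and Rps29) lay below all Tbx1-Cre Ctrl widths, against 18% of all promoters, and Rpl8 again lay above, against 0.573%. Without Mesp1-Cre Ctrl 1 these became 11 members below, against 38.3% of all promoters, and 2 above (Rpl8 and Rps23), against 0.791%. With all libraries, some margins were small. In Mesp1-Cre Ctrl the widest value stood at 231 bp against a narrowest control of 232 bp for Rpl19, and at 640 against 642 bp for Rpl14. In Tbx1-Cre cKO it stood at 573 against 576 bp for Rpl28. The minimum peak width itself was 199 bp in the Mesp1-Cre lists and 200 bp in the Tbx1-Cre lists. For Rps18 the widest peak in 8 lists lay 674 to 816 bp from any annotated start, at the far end of its window, and only in Tbx1-Cre cKO 3 at the start. Its peaks at the start were 498, 229 and 287 bp in Tbx1-Cre Ctrl and 341, 294 and 385 bp in Tbx1-Cre cKO, which overlapped. For Rpl24 the widest peak lay 278 to 471 bp from any annotated start in 7 lists. With the peak nearest to a start, 11 members again lay below in Tbx1-Cre cKO, with Rpl24 in place of Rps18, against 38.1% of all promoters, and 2 above (Rpl4 and Rpl8), against 0.136%. These alternatives were chosen after seeing the data. Of the 421 widest member peaks, 43 at 12 members covered no annotated start. Rplp0 belongs to the stalk that recruits elongation factors, Rps6 is the substrate of the S6 kinases, and Rps14 and Rps19 are genes of inherited or acquired anaemias.

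To compare members with the typical promoter of the same library, log2 widths were centred on the median of each library, which removed a library-wide shift of -0.35 in Tbx1-Cre cKO and -0.19 in Mesp1-Cre Ctrl (log2, against Tbx1-Cre Ctrl). On this relative scale limma with Benjamini-Hochberg adjustment over 10998 promoters called 0 of 45 members in Tbx1-Cre cKO (0% of all promoters called) and 0 of 45 in Mesp1-Cre Ctrl (0.0182% of all, 2 promoters). Some promoters share a peak: in Tbx1-Cre Ctrl 1 the 10998 promoters rested on 9803 distinct widest peaks, so the promoters tested are not all separate measurements. At an unadjusted p under 0.05, 1 member was lower and 6 were higher in Tbx1-Cre cKO, where 7.56% and 5.77% of all promoters were. In Mesp1-Cre Ctrl 1 member was lower and 0 were higher, where 2.97% and 1.57% of all promoters were. The median relative difference of the members was 0.17 in Tbx1-Cre cKO, with 34 of 45 above 0, and 0.09 in Mesp1-Cre Ctrl, with 32 of 45 above 0. Over all promoters the medians were 0.02 and 0.03. The median SE of a member was 0.189 (log2), so that differences of this size at a single promoter could not be detected with 3 libraries a group. Without the centring, the members' medians were -0.18 and -0.11 against -0.34 and -0.17 for all promoters, and 1 member, Rpl7, was called narrower in Tbx1-Cre cKO, where 3.68% of all promoters were and none was called wider. The direction of the typical member's difference from Tbx1-Cre Ctrl therefore turned with the scale: negative in bp, positive in width relative to the library median. In every library the median member peak itself stayed narrower than the median over all promoters.

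Rpl7 (chr1:16091376-16094743), a large-subunit gene with 6 annotated starts over 2580 bp, had the widest peak on average and, of the 45 members, the largest difference in bp between Tbx1-Cre cKO and Tbx1-Cre Ctrl. Its widths were 1951, 1932 and 1781 bp in Tbx1-Cre Ctrl, 1166, 882 and 784 bp in Tbx1-Cre cKO and 965, 1215 and 991 bp in Mesp1-Cre Ctrl. Both other groups lay below every Tbx1-Cre Ctrl library. The relative difference was -0.66 ± 0.17 (SE, log2) in Tbx1-Cre cKO (limma, Benjamini-Hochberg adjusted p = 0.209) and -0.65 ± 0.17 in Mesp1-Cre Ctrl (adjusted p = 0.725). Without centring, the first was -1.02 (limma, adjusted p = 0.019), the only one of 22 alternatives in which it was called, with adjusted p from 0.019 to 0.444 over them. Counted from the first coding TSS, the Tbx1-Cre Ctrl peaks began at -1598 to -1477 bp, well past the printed bases and past the upstream edge of the promoter window. Widths count the whole peak, so those of Rpl7 include bases outside its window. Whether these peaks also covered the start of another gene was not tested. In Tbx1-Cre cKO 2 and in Mesp1-Cre Ctrl 1 and 3 the same stretch was cut into a pair of peaks, of 457 and 882, 333 and 965, and 991 and 318 bp. The summed widths in Tbx1-Cre cKO 2, Mesp1-Cre Ctrl 1 and Mesp1-Cre Ctrl 3 were 1339, 1298 and 1309 bp, still below the controls, and the relative difference with summed widths was -0.45 in Tbx1-Cre cKO and -0.35 in Mesp1-Cre Ctrl.

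The next widest members were small-subunit genes. Rps29 (chr12:70258709-70260173), a zinc-binding protein gene, had widths of 1003, 1017 and 1050 bp in Tbx1-Cre Ctrl, 1054, 1097 and 929 bp in Tbx1-Cre cKO and 946, 927 and 988 bp in Mesp1-Cre Ctrl. Its coefficient of variation over the 9 libraries was 5.97%, although 39.5% of its positions began a 32-base word found elsewhere, the highest share among the members. It stayed near 1001 bp, its mean, while the medians of all promoters were lower in Tbx1-Cre cKO, and its relative difference in Tbx1-Cre cKO was 0.36 ± 0.10 (SE, log2; limma, adjusted p = 0.257). Rps19, the gene most often mutated in Diamond-Blackfan anaemia, had 1112, 967 and 1063 bp in Tbx1-Cre Ctrl, 861, 827 and 719 bp in Tbx1-Cre cKO and 950, 921 and 1050 bp in Mesp1-Cre Ctrl. Rps25, needed for initiation on some internal ribosome entry sites, had 937, 852 and 1031 bp, then 901, 1011 and 841 bp, then 878, 754 and 901 bp in the same order of groups. Rps21 had 922, 967 and 861 bp, then 777, 935 and 754 bp, then 894, 852 and 909 bp. Of these, Rps19 alone had no overlap between Tbx1-Cre cKO and Tbx1-Cre Ctrl.

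The steadiest promoter was that of Rpl37 (chr15:5066613-5069140), a large-subunit gene with 1 annotated start. Its widths were 835, 854 and 789 bp in Tbx1-Cre Ctrl, 785, 819 and 736 bp in Tbx1-Cre cKO and 814, 804 and 791 bp in Mesp1-Cre Ctrl, with a coefficient of variation of 4.21% against a median of 15.1% over the 45 members. Rps3, a small-subunit protein at the entry of the mRNA channel, varied by 7.75%, with 591, 611 and 706 bp, then 682, 567 and 684 bp, then 668, 700 and 635 bp. In both genes the 3 groups overlapped. The relative difference of Rpl37 in Tbx1-Cre cKO was 0.27 ± 0.12 (SE, log2; limma, adjusted p = 0.369).

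The narrowest member, Rpl8 (chr15:76734501-76736748), encodes a protein close to the peptidyl transferase centre. Its widths were 212, 213 and 200 bp in Tbx1-Cre Ctrl, 233, 227 and 320 bp in Tbx1-Cre cKO and 234, 403 and 314 bp in Mesp1-Cre Ctrl. All 6 libraries of the other groups were above the 3 controls, whose peaks were at or near the minimum of 200 bp. The relative difference was 0.66 ± 0.53 (SE, log2) in Tbx1-Cre cKO (limma, adjusted p = 0.592) and 0.77 ± 0.53 in Mesp1-Cre Ctrl (adjusted p = 0.96). In 7 lists the peak began 3 to 37 bp behind the only annotated start, so that the CCGGAAG and GGGCGG matches printed above lay outside it. In Tbx1-Cre cKO 3 and Mesp1-Cre Ctrl 2 193 and 164 of the printed bases were covered. No 32-base word around this start was found elsewhere in the genome.

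The other narrow members, and Rps24, varied more than the median member. Rpl19, whose protein takes part in a bridge between the subunits, had 278, 232 and 269 bp in Tbx1-Cre Ctrl, 276, 522 and 553 bp in Tbx1-Cre cKO and 231, 199 and 205 bp in Mesp1-Cre Ctrl. Its coefficient of variation was 43.6%, and its relative difference in Tbx1-Cre cKO was 1.09 ± 0.46 (SE, log2; limma, adjusted p = 0.346). Rps15 had 231, 313 and 286 bp, then 561, 376 and 288 bp, then 295, 273 and 506 bp in the same order of groups. Both genes thus had wider peaks in some Tbx1-Cre cKO libraries, with overlap in the rest. Rpl32 had 234, 399 and 455 bp, then 547, 205 and 264 bp, then 406, 311 and 262 bp. Rpl6 had 601, 216 and 358 bp, then 686, 508 and 396 bp, then 479, 236 and 537 bp. Rps24, another Diamond-Blackfan anaemia gene, had 395, 433 and 808 bp, then 581, 359 and 242 bp, then 581, 290 and 512 bp, and a coefficient of variation of 37.4%. In these last 3 genes the libraries of a group differed by more than the group means did.

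**Figure D5:**
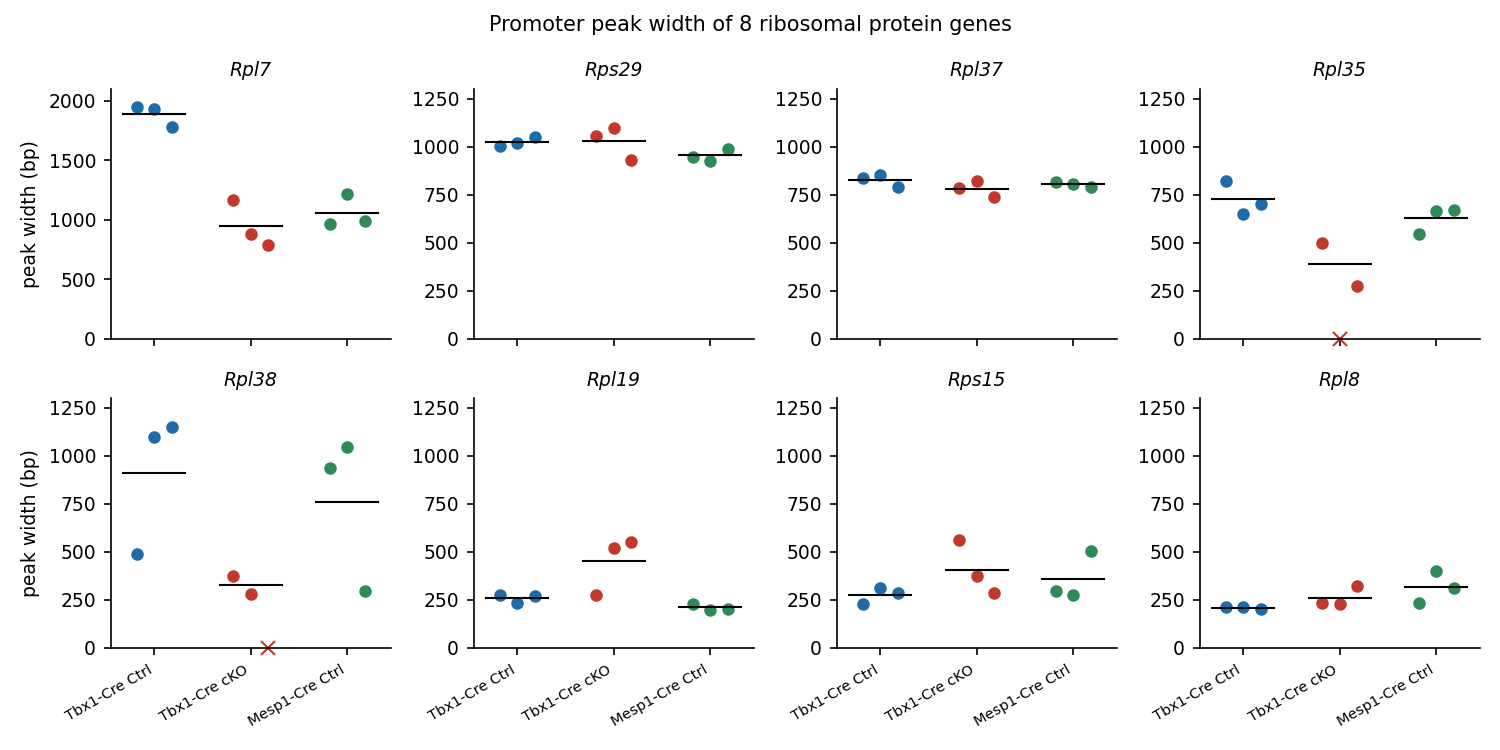
Width in bp of the widest promoter peak (vertical axes, from 0, with a higher range for Rpl7) of 8 ribosomal protein genes in each library (points, 3 per group, bars at the mean of the libraries with a peak); crosses at 0 mark lists without a peak. Rpl7 was at 1781 to 1951 bp in Tbx1-Cre Ctrl and at 784 to 1166 bp in Tbx1-Cre cKO, while Rpl37 stayed between 736 and 854 bp.

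The order of widths among the members was similar between libraries, as it was among all promoters. Spearman's rho of the 45 widths was 0.515 to 0.776 (median 0.708) over the 9 pairs of libraries within a group and 0.532 to 0.842 (median 0.698) over the 27 pairs between groups, where all pairs share the annotation and the peak caller. Over all 10998 promoters it was 0.58 to 0.721 and 0.48 to 0.694. Over the 45 members, mean width had a rho of 0.213 with GC content, -0.00329 with the CpG ratio, 0.146 with the share of repeated words and 0.117 with the number of annotated starts. Relative to their mean, narrower members varied more, with a rho of -0.5 between mean width and coefficient of variation. Because the coefficient divides the SD by that same mean, a negative rho can arise from the division alone. Mean medians in members with CCGGAAG (14) were 701 bp in Tbx1-Cre Ctrl, 608 in Tbx1-Cre cKO and 634 in Mesp1-Cre Ctrl, and in those without it (31) 677, 605 and 651 bp. The 16 members that host snoRNA genes had 649, 592 and 632 bp, and the 29 others 688, 617 and 661 bp. None of these features set wide members clearly apart from narrow ones.

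Several members share their promoter with another gene or hold more than 1 peak. In 7 cases the window held the start of a gene on the opposite strand (Rpl4 with Zwilch, Rpl12 with Lrsam1, Rpl15 with Nkiras1, Rpl18 with Sphk2, Rps18 with Vps52, Rps25 with Trappc4 and Rps27 with Rab13), and a peak there cannot be assigned to either gene. Only starts inside the window were counted. A peak that reached past it, as at Rpl7 in Tbx1-Cre Ctrl, may also cover the start of another gene, which was not tested. The widest peak at Rpl4 ended 63 to 396 bp ahead of its start in the 9 lists, and another, narrower peak covered the start in 2 of them. Without these 7 members, an alternative chosen after seeing the data, the differences in median width were -59.8 bp in Tbx1-Cre cKO and -28.8 bp in Mesp1-Cre Ctrl. Most members (37) never held more than 1 peak, and Rpl24 held 3 in every list. At least 1 annotated start lay under a peak in all 9 lists for 36 of the 47 members.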

How the data were processed

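ATAC-seq peak lists of 9 libraries (3 per group) were analysed. Reads had been processed by the authors, whose methods describe cutting adapters (cutadapt), alignment to mm9 (Bowtie2 2.3.4.3), removal of duplicate, mitochondrial and not uniquely mapped reads, and peak calling with MACS2 on every library by itself. The 3 Mesp1-Cre lists nevertheless hold 2 mitochondrial peaks each. They deposited only the interval positions of the peaks (chromosome, start and end), with no score, height or read count. Width therefore depends on the depth and on how the caller joins neighbouring intervals, and the depth per library is not known. Requiring unique mapping can thin reads near processed pseudogenes, which ribosomal protein genes have in number.

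Groups were taken from the sample labels. Starts came from the mm9 annotation (GENCODE) and sequences from the mm9 genome. The members, lists, motifs and rules were chosen with earlier results of these data known. Named members were those without a peak in at least 1 library, the 5 widest and 5 narrowest by mean width, any past the threshold, and the 3 most and 3 least variable. Of 36 genes in the list of other cytosolic ribosomal proteins, 35 were matched by symbol. Repeated sequence was counted as 32-base words within 500 bp of the first coding TSS that occur elsewhere in mm9. Relative widths were tested with limma 3.58.1 (R 4.3.3; lmFit, eBayes with trend) on log2 widths centred on each library's median, over 10998 promoters with a peak in all 9 libraries, with group as the only term, two-sided, Benjamini-Hochberg threshold 0.05. The test was also run on simulated widths with independent noise at each promoter. That simulation held no shared peaks and no minimum width, and nothing here rests on it. Counts and medians over members carry no p-value. Alternatives covered the window, TSS, overlap, peak number, width measure, scaling, filter, trend, replicate number and leaving out each library. Other steps used Python 3.11.15, pandas 2.3.3, numpy 2.4.6 and pysam 0.24.0.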

Additional observations from a re-analysis of the deposited data

How the results depend on the processing

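Of 145 recomputed values over 23 settings, 120 kept their call, direction or size. This total is a loose measure. A width difference counted as kept if it had the same sign and moved by no more than 1 SD of the libraries. By that rule -8.17 bp was kept beside -32.7 bp in Mesp1-Cre Ctrl. A count of 0 members called that stayed at 0 also counted as kept. Keeping an equal number of widest peaks gave a mean of 37 members with a peak in Tbx1-Cre Ctrl, 45 in Tbx1-Cre cKO and 42.7 in Mesp1-Cre Ctrl, and keeping the widest 75% gave 44, 44.7 and 44.3. By construction both settings drop the narrowest peaks. Without centring, limma called 1 member and 405 promoters in Tbx1-Cre cKO and 7 promoters in Mesp1-Cre Ctrl. Over all promoters in Tbx1-Cre cKO, where 0 were called with centring, summed widths gave 22 and limma without trend 18. In Mesp1-Cre Ctrl, 2 became 0 with the nearest peak, summed widths, a 500 bp window, or no trend. The cause was not tested. Leaving out 1 library at a time gave 0 to 19 promoters in Tbx1-Cre cKO (19 without Tbx1-Cre cKO replicate 1) and 0 to 3 in Mesp1-Cre Ctrl, 0 members in either, 46 to 46.5 members with a peak in Tbx1-Cre cKO and 47 in both control groups. The difference in members' median width then ranged from -101 to -54.6 bp in Tbx1-Cre cKO and from -53 to -8.17 bp in Mesp1-Cre Ctrl.

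Replicate numbers are shared by the groups, but the labels tie them to no litter, batch or day, and those of Mesp1-Cre Ctrl differ from the study's sample summary. Deviations of same-numbered libraries had r from -0.0191 to 0.0701 over 9 pairs, against -0.101 to 0.0721 over the other 18, and 6 of 9 libraries correlated best with their own number. With the replicate block, limma called 0 members in either comparison, 0 promoters in Tbx1-Cre cKO and 0 in Mesp1-Cre Ctrl.

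A width has no counting interval, and with 3 libraries a group the SE of a member's relative width was 0.104 (log2) or more. Lack of a call does not show equal widths.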
